A study of Mus musculus with 6 samples.

Results

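Gasdermins are a family of cytosolic proteins with an amino-terminal pore-forming part held inactive by a carboxy-terminal part. When a protease cuts the linker between them, the freed part inserts into the plasma membrane, and the cell releases interleukins and can die by pyroptosis. In the mouse, the A genes are known for the epidermis, the hair follicle and the sebaceous gland, where Gsdma3 mutations cause hair loss, and the C genes are known for epithelia that include the skin and gut. Gsdmd is the main target of the inflammatory caspases. The genes described here are Gsdma, Gsdma2, Gsdma3, Gsdmc, Gsdmc2, Gsdmc3, Gsdmc4 and Gsdmd, 8 genes chosen by symbol, through the transcript accession of each non-control probe. A probe was matched for 7 of the 8 (9 probes in all), none carried a Gsdmc2 accession, and 6 genes were among the 22822 genes and unnamed transcripts tested.

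The samples were untreated skin of 6 male mice of mixed C57Bl6/129Sv background, and the labels give the skin as telogen, when hair follicles rest. The 3 KO mice, labelled as a Sox4 conditional knockout in skin, were 17, 18 and 16 weeks old (replicates 1, 2 and 3), and the 3 WT mice were 20, 19 and 18 weeks old. The groups met in age only at 18 weeks, so age and genotype are largely confounded. Each RNA sample was hybridised to its own 1-colour Agilent array. The sources used here do not give the driver of the deletion or the cells in which it acts, and no label says whether WT mice carry a floxed allele. The family was singled out with the difference between KO and WT already known, Gsdma2 being among the most reduced genes. Every KO against WT value of a gasdermin below is therefore a description with no test of its own, and replicates measure only the spread between these 3 mice per group.

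Signal is given in the scanner's processed units, and levels as log2 of that signal minus the array's 75th percentile, which ran from 493.2 to 606.7 units in KO and from 380.3 to 487.7 units in WT. A spot is called well above background by the scanner software's own flag, set on 52.1% to 66.4% of probes in KO and 55.1% to 58.7% in WT. Slide 1 held KO replicate 3 and WT replicate 1, slide 2 held KO replicate 1 and WT replicates 2 and 3, and slide 3 held KO replicate 2 alone. Sox4, the targeted gene, read 78.7, 69.0 and 59.5 units in KO replicates 1, 2 and 3, against 504, 764 and 735 units in WT, 11.8-fold lower in KO (limma log2 fold change −3.56, SE 0.13, adjusted p = 0.00135, n = 3 and 3). The value table that the authors also deposited has KO and WT headings that run against the scanner files. Read by its headings, the directions of Sox4 and of the gasdermin median would be turned. By those headings 4 of the 6 gasdermins tested were higher and 2 lower in KO, against 1 and 5 here. Skin RNA is a mixture, so fewer cells of a type and less RNA per cell cannot be told apart. Of the skin markers, 6 of 6 basal and 6 of 6 spinous epidermis genes were measured, and the basal keratin Krt5 had levels of 8.85 to 8.92 in KO and 8.74 to 9.35 in WT. On KO replicates 1 and 2, several genes of the inner root sheath and hair shaft, structures that growing follicles build, stood far above the other arrays, which goes against the telogen label for those mice. The inner root sheath keratin Krt27 read 5.10, 4.29 and −4.01 in KO replicates 1, 2 and 3, against −3.56, −3.38 and −3.62 in WT. Of the measured genes, 5 of 8 inner root sheath and 9 of 9 hair shaft genes had a positive log2 fold change, and Krt72, Gata3, Tgm3, Foxn1 and Dlx3 did not stand high on both arrays. The list medians relative to the WT mean were 3.50, 3.13 and −0.27 log2 units (inner root sheath, 8 genes) and 4.09, 3.77 and 0.04 (hair shaft, 9 genes) in KO replicates 1, 2 and 3, against −0.14 to 0.13 and −0.11 to 0.11 in WT.

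RefSeq promoter windows (assembly GRCm38.p6, 250 bases before to 50 after the gene's start) were matched for 2 of the 8 genes, Gsdma3 and Gsdmc3. They are shown because no other member had a window, not because of their levels, and Gsdma2 is absent for that reason. Sox motifs were searched because the deleted gene encodes a Sox factor, and binding of Sox4 was not tested. Both windows were searched on either strand for ACAAAG and ACAATG, 2 core forms of the sequence that Sox proteins recognise; neither motif contains the other, and capitals mark a match. The Gsdma3 window lies on the plus strand at chr11:98626099-98626398, and the Gsdmc3 window on the minus strand at chr15:63878509-63878808.
Gsdma3: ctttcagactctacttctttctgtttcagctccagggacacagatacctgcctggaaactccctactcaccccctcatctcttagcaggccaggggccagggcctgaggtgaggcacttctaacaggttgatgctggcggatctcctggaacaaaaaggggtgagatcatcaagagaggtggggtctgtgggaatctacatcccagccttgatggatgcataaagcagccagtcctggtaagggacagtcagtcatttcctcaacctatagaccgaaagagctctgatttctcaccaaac
Gsdmc3: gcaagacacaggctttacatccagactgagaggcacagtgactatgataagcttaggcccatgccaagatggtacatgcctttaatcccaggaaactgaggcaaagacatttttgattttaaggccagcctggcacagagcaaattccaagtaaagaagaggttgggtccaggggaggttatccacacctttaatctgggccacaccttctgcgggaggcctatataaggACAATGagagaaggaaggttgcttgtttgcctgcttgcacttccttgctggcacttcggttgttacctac
The Gsdmc3 window held 1 match, ACAATG on the gene's own strand, starting 20 bases before the annotated start, and the Gsdma3 window held 0. Of 32851 such windows in the table, 18.7% held ACAAAG, 12.6% held ACAATG and 28.6% held either.

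Of the 6 gasdermins tested, 5 had a negative log2 fold change, as did 64.1% of all genes, and 3 (Gsdma2, Gsdma3 and Gsdmc3) had all 3 KO arrays below all 3 WT arrays. Across all genes tested, the groups did not overlap for 19.3%, with KO higher for 7.58% and lower for 11.7%. None of the 6 was among the 5 genes called by limma at an adjusted p under 0.05 (0.0219% of genes, 0.00438% higher and 0.0175% lower in KO), and 2 had an unadjusted p under 0.05, against 11.7% of genes. These shares are given as background, and nothing is read from the members' counts, since the same difference led to their choice. The median log2 fold change was −0.19 over the 6 gasdermins and −0.09 over all genes. The difference was larger in Gsdma2 than in Gsdma3 and slight in Gsdmc3, and the groups overlapped in Gsdma, Gsdmc and Gsdmd.

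**Figure D1:**
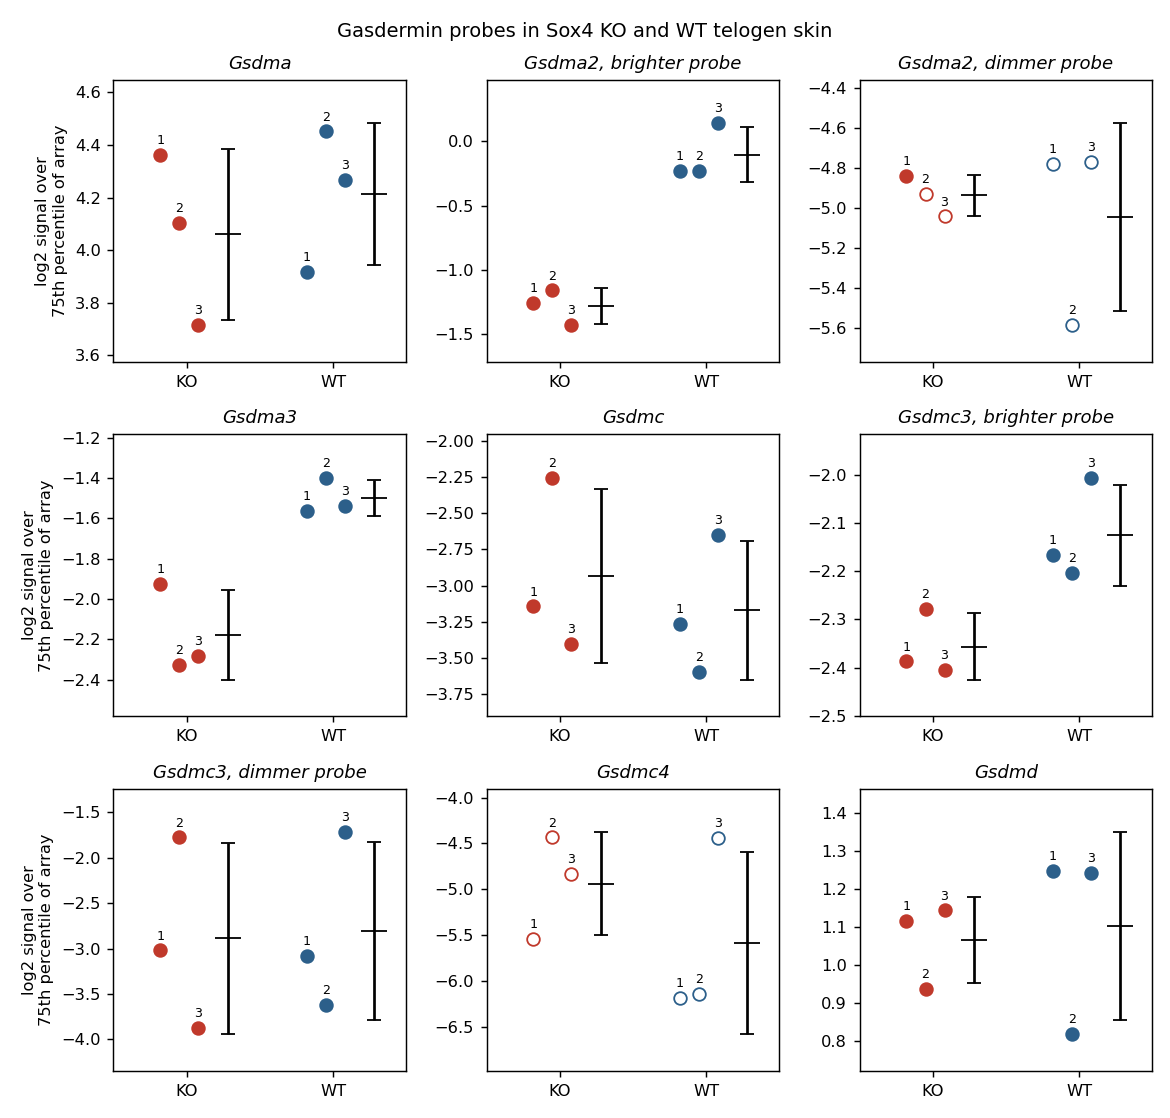
Log2 signal over the array's 75th percentile (y axis) for each of the 9 gasdermin probes, with the 3 KO arrays left of the 3 WT arrays and points numbered by replicate. Filled points were well above background and open points were not, bars show the mean and SD, and each panel has its own scale. In Gsdma2 (brighter probe) the KO points lie between −1.43 and −1.16 and the WT points between −0.23 and 0.14.

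The A genes lie side by side on chromosome 11 in the order Gsdma3, Gsdma2, Gsdma. Gsdma2, known in the mouse as a gasdermin of stomach and skin, was measured by a brighter and a dimmer probe. The brighter read 253.9, 227.7 and 182.8 units in KO replicates 1, 2 and 3, against 325.0, 415.6 and 483.1 units in WT. Every KO array was below every WT array, and the nearest arrays of the groups were 0.93 log2 units apart. Relative to the 75th percentile the level was −1.28 ± 0.14 in KO and −0.11 ± 0.21 in WT (SD, n = 3), a log2 fold change of −1.18 (SE 0.15), or 2.26-fold lower. Of the 22822 genes, 160 (0.701%) had a lower value. The difference was almost the same on the slides that hold both groups, −1.21 on slide 1 and −1.21 on slide 2. With KO replicate 3 as the only KO array it was −1.33. On that array the hair shaft list median relative to the WT mean was 0.04, although Krt86, Padi3 and Dlx3 read above every WT array. Under the other scaling, normexp background correction with quantile normalization, the Gsdma2 difference was −0.998. With age as a covariate it was −1.23, with a larger SE of 0.26.

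The dimmer Gsdma2 probe carried the same accession. It read 21.2, 16.7 and 14.97 units in KO, against 13.8, 10.1 and 16.1 units in WT, and only KO replicate 1 was well above background. At this signal no fold can be given, so the difference in Gsdma2 rests on 1 probe.

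Gsdma3, the gene of the hair loss mutations, read 159.9, 101.4 and 101.3 units in KO, against 128.8, 185.0 and 150.7 units in WT. In raw units KO replicate 1 lay within the WT range, while relative to its array's 75th percentile it was −1.92, below the lowest WT array at −1.56. The level was −2.18 ± 0.22 in KO and −1.50 ± 0.09 in WT (SD, n = 3), a log2 fold change of −0.68 (SE 0.15), or 1.60-fold lower. It was −0.72 on slide 1 and −0.46 on slide 2. With normexp and quantile normalization it was −0.47, so the direction was the same under both scalings and the size was smaller under the second. With age as a covariate it was −0.71, with a larger SE of 0.25.

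Gsdma, a gene of the upper epidermis and follicle, read 12475, 8759 and 6475 units in KO, against 5751, 10671 and 8426 units in WT. After scaling the groups overlapped, with KO replicate 3 below all WT arrays and WT replicate 1 below KO replicates 1 and 2. The log2 fold change was −0.15 (SE 0.22), from 4.06 ± 0.33 in KO and 4.21 ± 0.27 in WT (SD, n = 3). The slides gave −0.20 and 0.003. With KO replicate 3 as the only KO array the value was −0.50, and without it 0.02, so its sign turned without KO replicate 3. Leaving out 1 WT array gave −0.30, −0.03 or −0.12.

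**Figure D2:**
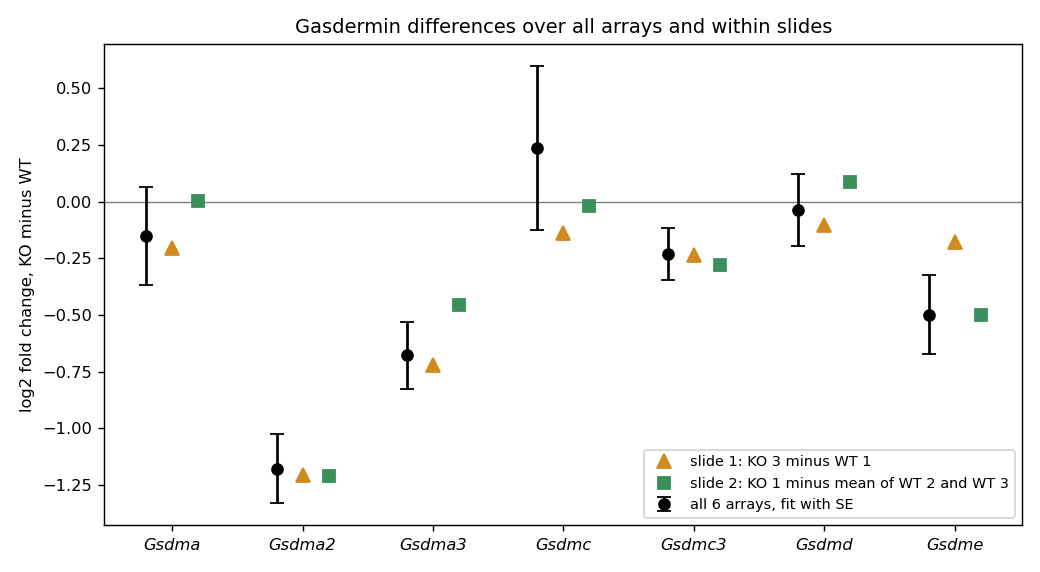
Log2 fold change, KO minus WT (y axis), for 6 gasdermins and their relative Gsdme, over all 6 arrays with its SE (circles), on slide 1 (triangles) and on slide 2 (squares). Gsdma2 lies at −1.18 over all arrays and at −1.21 on both slides, while Gsdmc lies above 0 over all arrays and below 0 on each slide.

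The C genes lie in a row on chromosome 15. Gsdmc read 68.7, 106.6 and 46.7 units in KO, against 39.6, 40.3 and 69.7 units in WT. KO replicate 2 was the highest array of its group and WT replicate 3 the highest of the other, and the groups overlapped, with a log2 fold change of 0.24 (SE 0.36) from −2.93 ± 0.60 in KO and −3.17 ± 0.48 in WT (SD, n = 3). Without KO replicate 2, the only array of slide 3, the value was −0.10, and with slide as a block −0.07. Leaving out any other single array gave values from 0.02 to 0.50.

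Gsdmc3 had a brighter and a dimmer probe, both well above background on all 6 arrays, and they disagreed in pattern. The brighter read 116.0, 105.0 and 93.2 units in KO, against 84.7, 105.8 and 109.0 units in WT, so the raw values overlapped. In raw units the highest array was KO replicate 1 and the lowest was WT replicate 1. Every KO array had a higher 75th percentile than any WT array, so the lower KO level appears only with the scaling. After scaling, KO lay below WT on every array (−2.36 ± 0.07 in KO and −2.13 ± 0.11 in WT, SD, n = 3), a log2 fold change of −0.23 (SE 0.11), with a gap of 0.07 log2 units between the nearest arrays. On slide 1 it was −0.24, on slide 2 −0.28, and with normexp and quantile normalization −0.11.

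The dimmer Gsdmc3 probe read 74.8, 148.6 and 33.7 units in KO, against 44.9, 39.7 and 133.1 units in WT. As for Gsdmc, KO replicate 2 and WT replicate 3 were the high arrays, and the log2 levels spanned 2.15 units across the 6 arrays, against 0.40 for the brighter probe. The log2 fold change was −0.08 (SE 0.70). Gsdmc4 was not well above background on any array. It read 12.998, 23.5 and 17.3 units in KO, against 5.24, 6.92 and 20.1 units in WT, where no order can be read. The mice of KO replicate 2 and WT replicate 3 were both labelled 18 weeks old and were hybridised on different slides, 3 and 2. The probe letters are not in the files used here, so whether probes of these closely related genes, including the unmatched Gsdmc2, read each other's transcripts was not tested.

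Gsdmd, the gasdermin cut by caspases 1 and 11, read 1315, 973 and 1089 units in KO, against 903, 859 and 1036 units in WT. The groups overlapped after scaling, with 1.06 ± 0.11 in KO and 1.103 ± 0.247 in WT (SD, n = 3) and a log2 fold change of −0.04 (SE 0.16). Its sign differed between slide 1 (−0.10) and slide 2 (0.09). This probe was spotted in replicate, and 8 to 10 spots per array passed the outlier flags. Their SD within an array was 0.023 to 0.051 log2 units in KO and 0.033 to 0.034 in WT, below the SD between mice in both groups.

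The relatives Gsdme and Pjvk were not among the 8. Gsdme, a gasdermin cut during apoptosis, read 290.1, 195.3 and 211.2 units in KO, against 184.1, 326.5 and 299.1 units in WT, and its log2 fold change was −0.50 (SE 0.18; limma adjusted p = 0.371). Its scaled values did not overlap by 0.02 log2 units, with WT replicate 1 next to KO, and the slides gave −0.18 and −0.50. Pjvk was well above background on 1 array only, KO replicate 1.

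The nearest measured genes on the chromosome, with Gm, Rik and LOC names passed over, had values closer to 0 than Gsdma2. All but Cyrib, beside the C genes, also had values closer to 0 than Gsdma3. Next to Gsdma3, Ikzf3, Zpbp2 and Ormdl3 had log2 fold changes of 0.10, −0.04 and −0.15. On the side of Gsdma, the proteasome subunit Psmd3 had −0.09, the Mediator subunit Med24 0.21 and the thyroid hormone receptor Thra 0.21. Around the C genes, Myc, Pvt1 and Macroh2a3 lay between −0.23 and −0.06, Asap1 had −0.13 and Efr3a −0.20. Cyrib had 0.90 (SE 0.25; limma adjusted p = 0.295), with 0.22 on slide 1 and 1.01 on slide 2. The 6 neighbours of Gsdmd (Top1mt, Mafa, Zc3h3, Naprt, Eef1d and Pycrl) lay between −0.20 and 0.05. None of the 18 neighbours passed the limma threshold, and 1, Cyrib, had an unadjusted p under 0.05, against 11.7% of all genes.

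**Figure D3:**
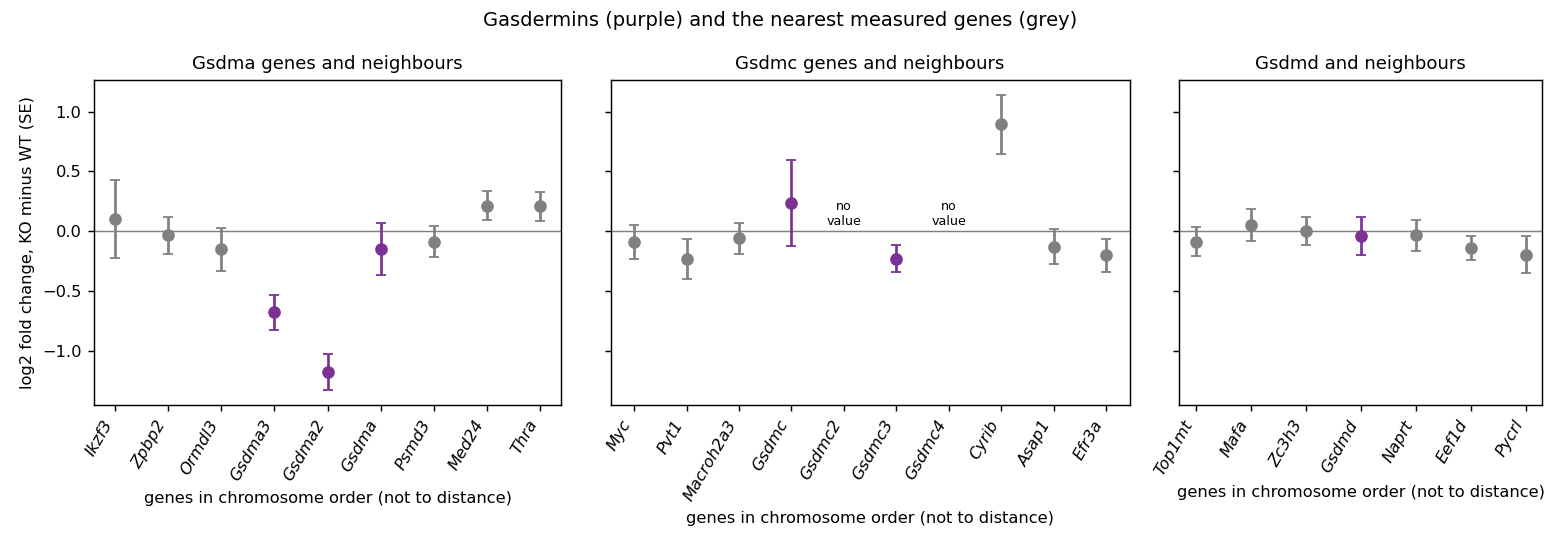
Log2 fold change, KO minus WT, with SE (y axis), for the gasdermins (purple) and the 3 nearest measured genes on each side (grey), in chromosome order and not to distance. Genes with Gm, Rik or LOC names were passed over. Gsdma3 (−0.68) and Gsdma2 (−1.18) lie below all 6 neighbours of the A genes, which run from −0.15 to 0.21, and Gsdmc2 and Gsdmc4 have no tested value.

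Likeness between array profiles was measured as the root-mean-square difference of log2 values over the 6 arrays after removing each gene's mean, as a description with no test; the arrays share their group structure. For Gsdma2, the 5 nearest of 14175 genes well above background on all arrays were Zap70 (0.13), Gzmc (0.14), Cd3d (0.14), Cd3e (0.15) and Ltb (0.16), against a median distance of 0.59. Zap70, Cd3d and Cd3e act in T cell receptor signalling, Gzmc is a granzyme of cytotoxic cells and Ltb is a lymphotoxin chain. Only 9 genes lay within 0.2 of Gsdma2. Cd3e, for example, had levels of 0.52, 0.79 and 0.75 in KO replicates 1, 2 and 3, against 1.62, 1.92 and 2.02 in WT, and was likewise lower in every KO array. All 5 measured T and NK cell markers, of 8 listed, were lower without overlap (median −1.19), as were 11.7% of all genes. Cd3g was the 1 called by limma (log2 fold change −1.32, adjusted p = 0.0475), against 0.0175% of all genes called lower. Whether the lower T cell signal has a part in the Gsdma2 value was not tested.

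For Gsdmc the nearest genes were the hyaluronan synthase Has1 (0.11), the G protein regulator Rgs4 (0.15), Eaf2 (0.18), the receptor gene Mrgprb1 (0.18) and the prostaglandin receptor Ptger2 (0.19), against a median distance of 0.51. Has1 read −3.30, −2.33 and −3.52 log2 units in KO, against −3.09, −3.68 and −2.81 in WT, with the same high arrays as Gsdmc. For the dimmer Gsdmc3 probe near genes were Mrgprb1 (0.39), Gabrd (0.41), Gsdmc (0.43) and Has1 (0.46), and no gene lay within 0.2. Among the gasdermins themselves, the dimmer Gsdmc3 probe was closer to Gsdmc (0.43) than to the brighter Gsdmc3 probe (0.77). Gsdma3 was closest to Gsdme (0.18) and at 0.33 from Gsdma2.

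**Figure D4:**
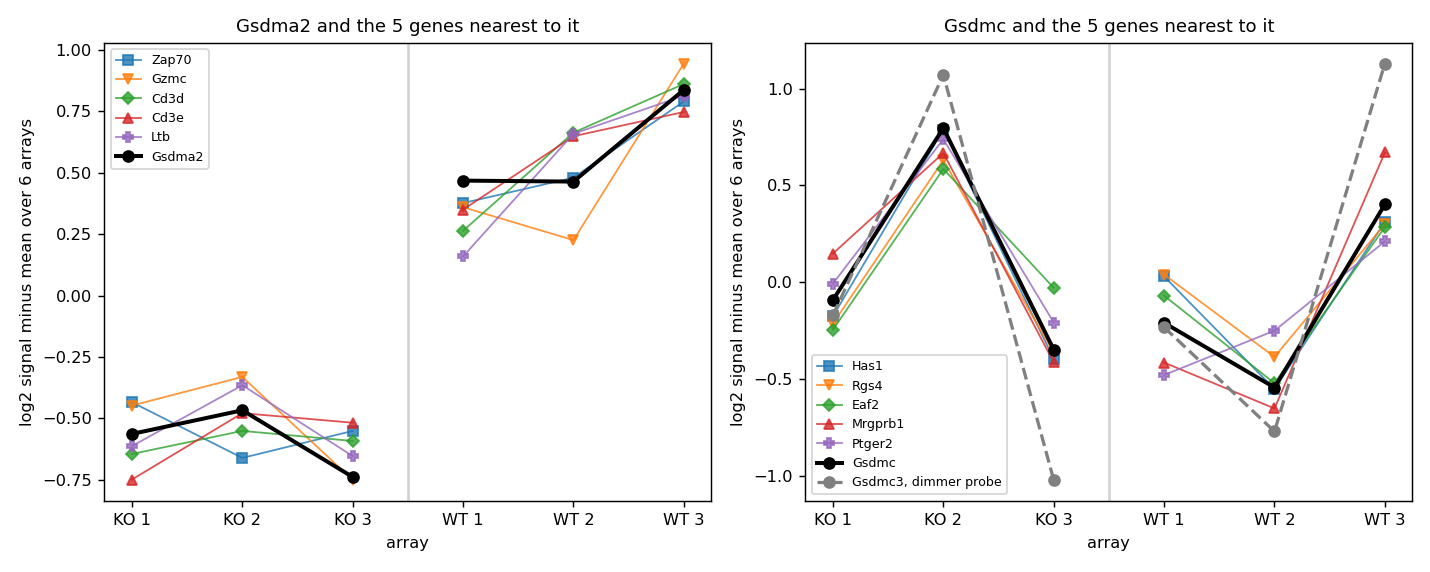
Log2 signal minus the mean over the 6 arrays (y axis) by array (x axis), for Gsdma2 with its 5 nearest genes (left) and Gsdmc with its 5 nearest genes and the dimmer Gsdmc3 probe (right). Lines join arrays of a group only to guide the eye; Gsdma2 and its neighbours are low in KO, and Gsdmc is highest in KO replicate 2 and WT replicate 3.

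Genes that act with gasdermins were taken from 6 lists by role. Of 65 listed entries, 60 were measured, 50 with a negative (64.1% of all genes) and 10 with a positive log2 fold change, and 11 were lower in KO without overlap, against 11.7% of all genes. None passed the limma threshold in either direction, with adjusted p from 0.30 to 0.99. An unadjusted p under 0.05 was found for 5, against 11.7% of all genes. Their median was −0.18, against −0.09 over all genes.

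Inflammasome sensors and their adaptor (12 of 15 measured, 8 negative, median −0.09) included the pyrin gene Mefv at −0.42 (SE 0.15), Naip5 at −0.22 and Card9 at 0.56, with 1 WT array not well above background. The caspases (9 of 9 measured, 8 negative, median −0.22) included Casp1, the enzyme that cuts Gsdmd and matures interleukins, with levels of 3.02, 3.02 and 3.49 in KO, against 3.50, 3.52 and 3.72 in WT. Its log2 fold change was −0.40 (SE 0.17), but −0.01 on slide 1 and −0.60 on slide 2. Casp9, of the apoptotic pathway, had −0.22 (SE 0.12).

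Other proteases able to cut gasdermins (7 of 8 measured, 7 negative, median −0.28) included Gzma, a granzyme of cytotoxic lymphocytes, at −1.75 (SE 0.72), with overlapping groups and 1 KO array not well above background. The lysosomal cathepsins Ctsb and Ctsd had −0.28 and −0.32. Among interleukins and alarmins (10 of 11 measured, 6 negative, median −0.20), Il18, a caspase 1 product released through gasdermin pores, read 2.06, 2.10 and 2.72 in KO, against 2.87, 3.08 and 3.07 in WT. Its log2 fold change was −0.71 (SE 0.20; limma adjusted p = 0.300), with −0.15 on slide 1 and −1.01 on slide 2. Il33 had −0.34, and Il1f8, also named Il36b, −0.33.

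Pore, rupture and repair partners (15 of 15 measured, 14 negative, median −0.16) included the membrane-binding annexins Anxa1 (−0.34) and Anxa2 (−0.26) and the amino acid sensing GTPase Rraga (−0.26). Transcription factors reported for gasdermins (7 of 7 measured and negative, median −0.14) included Gata3 (−0.18), Rela (−0.17) and Foxo3 (−0.96), which read −5.13 on KO replicate 2, where it was not well above background, and −2.85 and −2.83 on the other KO arrays, against −2.78, −2.65 and −2.51 in WT.

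Markers of the cell types known to express gasdermins were set beside these values. Sebaceous gland genes (15 of 16 measured) were negative in 14 cases, 6 without overlap (11.7% of all genes), with a median of −0.34. Elovl3 had −0.76, Acsm3 −0.63 and Krt79 −0.51. Markers of the upper isthmus and infundibulum of the follicle (7 of 7 measured, Krt79 shared with the sebaceous list) were negative in 6, 5 of them without overlap, with a median of −0.51. The antimicrobial peptide gene Defb6 had −0.70 and Cst6, a protease inhibitor, −0.65. Granular and cornified epidermis genes had a median of −0.26 (15 of 16 negative), spinous genes −0.22 (6 of 6) and basal genes −0.20 (6 of 6). None of these genes passed the limma threshold, while 6 sebaceous, 4 upper follicle and no epidermal layer genes had an unadjusted p under 0.05, against 11.7% of all genes. The upper follicle scores (median over the list relative to the WT mean) were −0.37, −0.55 and −0.52 in KO replicates 1, 2 and 3, against −0.16, 0.22 and −0.09 in WT, without overlap. The T and NK cell scores did not overlap either (−1.33, −1.15 and −1.14 in KO, against −0.02, 0.05 and 0.02 in WT). Nor did the skeletal muscle scores given below, which were higher in KO. Such separation was not particular to these cell types. Scores of the caspase, other protease, pore partner, transcription factor and, barely, locus neighbour lists were also lower in KO without overlap. Those of the inflammasome and interleukin lists overlapped. The sebaceous scores overlapped, with −0.07, −0.63 and −0.31 in KO, against −0.18, 0.07 and 0.08 in WT, and so did those of the 3 epidermal lists. The part of any of these lists in the gasdermin values was not tested.

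Skeletal muscle markers moved the other way, with 10 of 10 positive, 9 without overlap (7.58% of all genes higher) and a median of 1.83. None passed the limma threshold, and 9 had an unadjusted p under 0.05, against 11.7% of all genes. Their scores were 1.79, 2.05 and 1.57 in KO replicates 1, 2 and 3, against 1.20, −0.30 and −0.90 in WT. Their part in the gasdermin values was not tested. Macrophage markers (7 of 8 measured) had a median of −0.19 and neutrophil markers (5 of 7) 0.16. Neutrophil scores overlapped, with 0.26, −0.34 and −0.86 in KO replicates 1, 2 and 3, against 0.28, 0.16 and −0.11 in WT. Of the 4 gut epithelium markers the measured ones, Fabp2 and Lgals4, had −0.04 and 0.07.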

How the data were processed

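Scanner files hold spot intensity values as deposited by the authors from Agilent Feature Extraction 11.5.1.1, per the file headers, with no scaling between arrays; deposited flags mark spots well above background and outliers. A value table from the authors, also deposited, is on a log2 scale. Over 27351 probes each of its columns followed an array of the other genotype with the same replicate number (correlations 0.942 to 0.964, against −0.594 to −0.216 with the array of its heading), so it served only as an alternative. The submitters' processing notes name limma.

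Processed signals were averaged per probe on the log2 scale without outlier spots (31 of 55681 probes left out) and each array's 75th percentile was subtracted. Accessions named 27491 probes through RefSeq (GRCm38.p6); the array grid refers to mm9. A probe was kept where every array of either group had it well above background (30081 probes), and the brightest stood for its gene. The KO and WT groups were set against each other in R 4.3.3 with limma 3.58.1 (lmFit, eBayes, Benjamini-Hochberg adjustment, threshold 0.05, two-sided). The planned normexp alternative used median spot signal (offset 50); mean signal was not used here. On simulated data for this comparison (22822 genes, 10 runs, 200 genes changed), limma called 93.2% of the genes shifted by 3 log2 units and 45.7% of those shifted by 1, with 5.92% false calls. The adjustment is stricter where fewer genes change, and the real comparison called only 5 genes. These shares therefore do not give the power of the real comparison.

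The members and gene lists were chosen with earlier results of these data known. Named genes are all members and their probes, relatives and neighbours, up to 3 of each list by smallest unadjusted p and every called gene, and the 5 genes nearest in profile to each member probe that was well above background on all arrays and spanned at least 1 log2 unit; some genes that this rule names are not reported here. The number of arrays limits the precision.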

Additional observations from a re-analysis of the deposited data

How the results depend on the processing

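Signs of Gsdma2, Gsdma3 and Gsdmc3 held in all 15 alternatives run for each, ranging from −1.33 to −0.998, from −0.81 to −0.46 and from −0.28 to −0.11. Gsdma kept its sign in 13, Gsdmc in 10 and Gsdmd in 9 of 15. All 15 used scaled values, and some could not turn a sign. For each kept gasdermin, leaving out the filter on dim probes or blocking on replicate number returned the main value. The mean of all kept probes of a gene did so too, except for Gsdmc3. With 1 array left out, the median of the kept gasdermins ran from −0.27 to −0.14, Sox4 from −3.66 to −3.49, and the count of called genes from 2 to 303 against 5 (3 without KO replicate 1, 88 without KO replicate 3, 303 without WT replicate 1, and 2 without KO replicate 2, WT replicate 2 or WT replicate 3). Dropping KO replicates 1 and 2, where several hair shaft genes stood high (added after seeing the data), gave a median of −0.39. The count was 139 with age as a covariate, 2 with no filter on dim probes, 8 with normexp and quantile normalization, 1 with slide as a block and 0 with the replicate number as a block, where Sox4 kept −3.56 with limma adjusted p = 0.103. That block used numbers shared by the labels alone; same-numbered arrays deviated together with correlations of −0.13, −0.04 and 0.08 over genes, so the samples are not taken as paired. Read by its headings, the authors' deposited value table gave 2.56 for Sox4 and 0.087 for the gasdermin median. The causes were not tested. Dim signal limits Gsdmc4, Pjvk and the dimmer Gsdma2 probe.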
